A study of Mus musculus with 12 samples.

Results

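The response to tumor necrosis factor alpha (TNF-α) was followed in mouse embryonic fibroblasts (MEFs) that lack Sirt6, on 4 Illumina bead arrays of the genotype Sirt6-/-. The cells were untreated (0 h) or exposed to 20 ng/mL TNF-α for 1.5, 6 or 24 h, with 1 array each. Of 16593 genes with a named probe, the 5748 that reached an intensity of 100 on any of these 4 arrays were followed, each by its brightest probe, and each treated array was set against the 0 h array. The series holds 12 arrays, with wild-type and Sirt6-/-RelA-/- cells treated for the same times, and 6096 genes reached 100 on any of the 12. All cultures were primary MEFs of 13.5-day embryos, grown in DMEM with 15% FBS and passaged 4 times, from littermate embryos per the study's methods. Every condition is 1 array, so no test within Sirt6-/- cells is possible, and a difference between 2 of their arrays has no replicate check. No untreated culture was harvested at 24 h among these arrays, so that TNF-α and time in culture cannot be told apart. Fewer cells of a type and less RNA per cell cannot be told apart in such bulk samples.

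TNF-α binds its receptor and activates the IκB kinase, which marks IκBα for destruction and frees NF-κB dimers, RelA among them, to enter the nucleus and bind κB sites in promoters. The early targets include chemokines, adhesion molecules and the pathway's own inhibitors, among them IκBα itself and the ubiquitin-editing enzyme A20, which close the loop. Sirt6 is an NAD-dependent deacetylase of histones that is known to interact with RelA and to limit transcription at NF-κB target promoters. Fibroblasts are known to answer TNF-α with leukocyte-attracting factors and matrix-degrading enzymes.

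The Sirt6 probe had intensities of -8.50 to 5.88 on the Sirt6-/- arrays, against 37.6 to 44.2 on the wild-type arrays, which is itself under the detection value of 100. Rela, the gene of the NF-κB subunit RelA, was measured at 1025 at 0 h, 1442 at 1.5 h, 1446 at 6 h and 1251 at 24 h in Sirt6-/- cells and at 172 to 187 in Sirt6-/-RelA-/- cells. Of 13 listed fibroblast markers, 10 reached 100, with Vim at 10525 and Col1a1 at 4817 at 0 h, while Pdgfra and Lum stayed under 36 on every Sirt6-/- array. The skeletal muscle transcripts Acta1 (6895 at 0 h) and Myl1 (1105) were also present in the cultures and moved by at most 0.19 on the log2 scale. Over the 9 measured genes of that list, changes ran from -0.43 to 0.38. Tnnc2, the lowest of these, read 121 at 0 h, 103 at 1.5 h, 129 at 6 h and 89.9 at 24 h in Sirt6-/- cells. In the other genotypes it was at 9.55 at most. Of 7 endothelial markers on the array, 1 reached 100, Emcn, with 116 at 0 h, 112 at 1.5 h, 124 at 6 h and 100.4 at 24 h in Sirt6-/- cells and at most 12.9 in the other genotypes, while Pecam1, Cdh5, Kdr, Tek and Tie1 were at 16.5 at most on the Sirt6-/- arrays. Of 7 epithelial markers 2 reached 100, Krt19, with 107 at 0 h, 133 at 1.5 h, 89.7 at 6 h and 70.2 at 24 h, and Cldn4, with 142 at 0 h, 174 at 1.5 h, 191 at 6 h and 219 at 24 h in Sirt6-/- cells and at most 23.3 in the others, and Cdh1 was at 11.0 at most. The part of these transcripts in the results was not tested. Across 6096 genes the wild-type 0 h array had the lowest mean correlation with the other arrays of its genotype (0.967, against 0.982 to 0.991 for the 11 others), which bears on every wild-type change given below but on no Sirt6-/- value.

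At 1.5 h of TNF-α, 49 genes were at least 2-fold higher than at 0 h in Sirt6-/- cells, 0.852% of the 5748, and 0 were at least 2-fold lower. At 6 h the counts were 60 higher (1.04%) and 5 lower (0.0870%), and at 24 h they were 63 higher (1.10%) and 26 lower (0.452%). Changes are differences of log2 intensities, with values under 16 set to 16, so that 1 on this scale is 2-fold. Over all 5748 genes the median change was 0.04, 0.04 and 0.05 at the 3 treated times, and its standard deviation over genes widened from 0.27 to 0.32 and 0.37. In all, 83 genes were past 2-fold upward at any time and 30 downward, with no gene in both sets. The 83 divide by time: 31 were past 2-fold at all 3 times, 9 at 1.5 and 6 h, 17 at 6 and 24 h, 1 at 1.5 and 24 h, 8 at 1.5 h only, 3 at 6 h only and 14 at 24 h only. All 3 sets of counts share the same 0 h array. Of the 83 genes, 41 were under 100 at 0 h and entered through the treated arrays alone, and 42 were measured above 100 before TNF-α. Such genes also count as measured in the lists below. The share past 2-fold and the median change of a list are thus in part fixed by this filter.

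**Figure D1:**
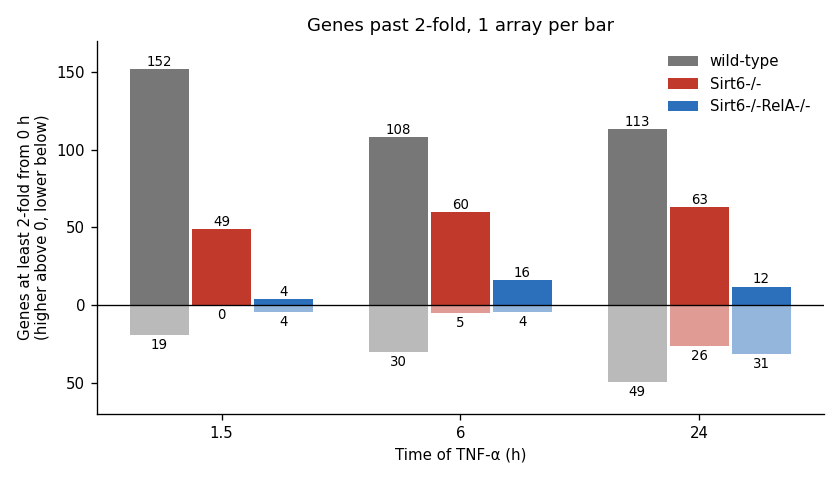
Number of genes at least 2-fold from the 0 h array of the same genotype (vertical axis, higher genes above 0 and lower genes below) at 1.5, 6 and 24 h of TNF-α, among the 5748 genes at 100 on any Sirt6-/- array. Each bar is 1 array against 1 array. In Sirt6-/- cells the higher genes number 49, 60 and 63 and the lower genes 0, 5 and 26.

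Chemokines, the secreted proteins that draw leukocytes to a tissue, were the list with the most genes past 2-fold. Of 27 chemokine genes on the array, 13 were measured. Of these, 9 were at least 2-fold higher at 1.5 h, 9 at 6 h and 8 at 24 h. The median change of the 13 was 1.66, 2.64 and 2.63. Cxcl1, Cxcl5, Cxcl10, Cxcl16, Ccl5 and Ccl9 were under 100 at 0 h and are measured only through the treated arrays. The share of 9 in 13 and the medians are thus in part fixed by the filter. Cxcl1, a ligand of the neutrophil receptor Cxcr2, had intensities of 35.2 at 0 h, 940.3 at 1.5 h, 416 at 6 h and 399.5 at 24 h. Its value at 1.5 h was 26.7-fold that at 0 h. This was the largest change at that time among genes above the floor for low values at 0 h. Cxcl1 then stayed at less than this peak. Ccl2, which attracts monocytes through Ccr2, was at 227 at 0 h, 2579 at 1.5 h, 3447 at 6 h and 3784 at 24 h, and so 16.7-fold higher at the last time. Ccl7, another ligand of Ccr2, read 1348 at 0 h, 5224 at 1.5 h, 6428 at 6 h and 8345 at 24 h. For both of these genes the order of the 4 arrays was the order of the times.

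Ccl5, a chemokine of T cells and monocytes, was under the floor of 16 at 0 h (10.6) and read 144, 728 and 698 at the later times, which is at least 45.5-fold higher at 6 h. Cxcl10, an interferon-inducible ligand of Cxcr3, was likewise under the floor at 0 h (8.93) and read 230.2, 135 and 54.2. It was at least 14.4-fold higher at 1.5 h and had lost most of this by 24 h. Cxcl5, another Cxcr2 ligand, read 12.2 at 0 h, 132 at 1.5 h, 99.7 at 6 h and 246 at 24 h, the first of these under the floor. Cxcl16 and Ccl9 were slower. Cxcl16, a membrane-bound chemokine and scavenger receptor, had its highest intensity at 24 h (23.9 at 0 h, 70.2 at 1.5 h, 155 at 6 h and 240.3 at 24 h), and Ccl9 at 6 h (37.4 at 0 h, 118 at 1.5 h, 395 at 6 h and 258 at 24 h). Cx3cl1, a chemokine that also works as a membrane adhesion molecule, went from 419 to 1285 at 6 h and stood at 804 at 24 h, under 2-fold. The remaining measured members, Cxcl12, Cxcl14, Ccl17 and Ccl27a, stayed within 2-fold at every time, and Cxcl14 had the lowest change (-0.97 at 24 h). Cxcl2 did not reach 100 (highest 42.3), nor did Ccl20 (1.85).

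**Figure D2:**
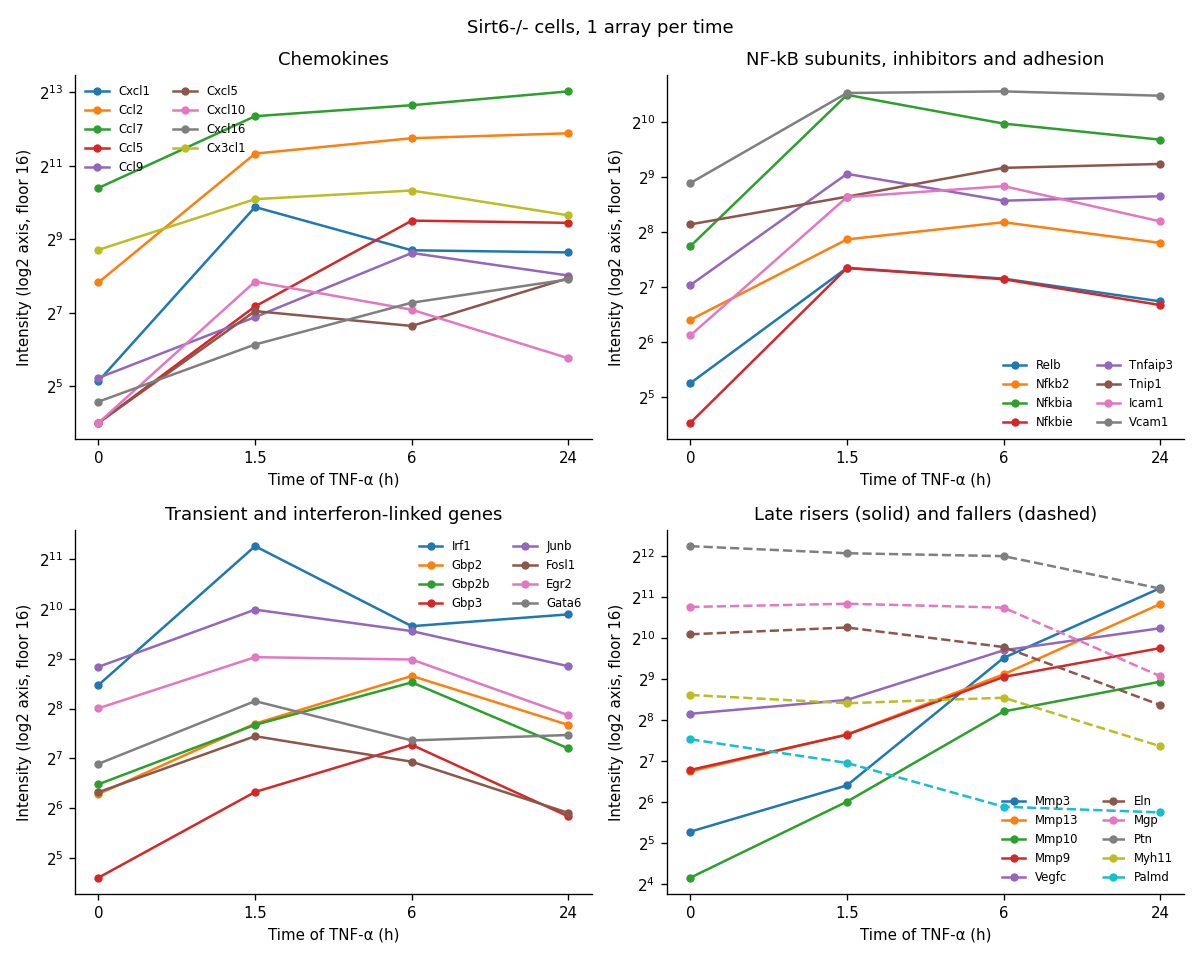
Intensity (vertical, log2 axis, values under 16 drawn at 16) at 0, 1.5, 6 and 24 h of TNF-α in Sirt6-/- cells, 1 array per time and 1 line per gene, in 4 groups. The chemokines drawn, and all drawn NF-κB and adhesion genes but Tnip1, are at least 2-fold higher at 1.5 h. Ccl5, Ccl9 and Cxcl16 are among those that are highest later. The Gbp genes are highest at 6 h, and Mmp3 and Mmp13 are highest at 24 h. Eln, Mgp, Ptn, Myh11 and Palmd (dashed) are lowest at 24 h.

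Within the NF-κB family itself, the subunit genes Relb and Nfkb2 were past 2-fold at all 3 times and Rela at none. Relb, partner of the non-canonical dimer, read 38.2 at 0 h, 164 at 1.5 h, 143 at 6 h and 107 at 24 h. Nfkb2, whose product is processed to the other member of that dimer, read 84.9 at 0 h, 234 at 1.5 h, 291 at 6 h and 224 at 24 h. Rela changed by 0.49, 0.50 and 0.29 on the log2 scale. Bcl3 and Rel were under 100 on all 4 arrays.

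Of 8 measured feedback genes, 3 were past 2-fold at 1.5 h and 4 at 6 and 24 h, with list medians of 0.55, 0.95 and 0.98. Nfkbia, which encodes IκBα, read 215 at 0 h, 1451 at 1.5 h, 1009.9 at 6 h and 824 at 24 h, a 6.76-fold difference at 1.5 h. Nfkbie, which encodes IκBε, read 23.1 at 0 h, 163 at 1.5 h, 142 at 6 h and 102 at 24 h. Both inhibitors were highest at 1.5 h and lower at each later time, and at 24 h Nfkbia was 3.84-fold and Nfkbie 4.42-fold its level at 0 h. Tnfaip3, which encodes A20, read 132 at 0 h, 536 at 1.5 h, 382 at 6 h and 404 at 24 h. Its binding partner Tnip1 came later, with 283 at 0 h, 402 at 1.5 h, 578 at 6 h and 607 at 24 h, and passed 2-fold only from 6 h. Tank, Cyld, Nfkbiz and Peli1 remained within 2-fold, and Tank was nearest (0.88 at 6 h). Among 7 measured genes of TNF receptor signalling, the one past 2-fold was Birc3, a ubiquitin ligase that protects from death signalling, with 21.1 at 0 h, 118 at 1.5 h, 91.8 at 6 h and 84.7 at 24 h. The receptor gene Tnfrsf1a went the other way, from 102 at 0 h to 59.6 at 24 h, a change of -0.78.

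The promoters of these genes were read from RefSeq (GRCm38.p6), as the 250 bases before the annotated start, on the strand of the gene. Promoters were at hand for 36 of the 49 genes past 2-fold at 1.5 h and for 4756 of the 5748 genes. Searched on both strands, the κB letters, GGGA, any 2 bases and TTCC, were in 5 of these 36 promoters (13.9%), those of Csf1, Cxcl1, Cxcl10, Nfkb2 and Nfkbia, in 0 of 28 promoters of genes first past 2-fold at 6 or 24 h, in 1 of 19 of lower genes, and in 1.36% of all 27025 genes with a promoter. The interferon-response letters, TTTC, any 2 bases and TTTC, were in 4 of the 36 (11.1%: Cxcl10, Gbp2, Gbp2b and Gbp3), in 3 of the 28 first past 2-fold later (10.7%), in 1 of the 19 lower genes and in 3.46% of all. The AP-1 letters TGANTCA, added after the values were seen, were in 10 of the 36 (27.8%), among them Mmp3, Mmp10, Lif, Nfkbie and Tnfaip3, in 3 of the 28 (10.7%), in 2 of the 19 and in 7.82% of all. A match of letters is a description of the window and not a site shown to be bound. Each motif was searched in 1 form only, so a promoter without a match may still hold another form of the motif. The following 8 are shown with the matches to the 3 motifs in capitals. The κB picks were made among genes past 2-fold at 1.5 h, and the interferon-response picks among the measured interferon response list only. Cxcl1 (κB letters) and Gbp3 and Gbp2 (interferon-response letters) had the largest changes at 1.5 or 24 h among those that hold the motif. Nfkbie and Mmp3 (κB) and Irf1 (interferon-response) had the largest among those with a promoter at hand that do not. Ccl2 and Ccl5 were among the genes without one, and changed by more than Nfkbie at 1.5 h (3.51 and 3.17, against 2.82). Outside the interferon response list, Cxcl10 and Mmp13 hold the interferon-response letters and changed by more than Gbp3 and Gbp2. Cxcl10 and Nfkbia were chosen after their values were seen, so the set was picked in part for its motifs.
Cxcl1: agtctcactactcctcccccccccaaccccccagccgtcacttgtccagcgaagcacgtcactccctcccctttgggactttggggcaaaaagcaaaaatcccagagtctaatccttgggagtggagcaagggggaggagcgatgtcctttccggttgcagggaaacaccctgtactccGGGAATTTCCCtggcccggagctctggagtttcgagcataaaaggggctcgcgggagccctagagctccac
Nfkbia: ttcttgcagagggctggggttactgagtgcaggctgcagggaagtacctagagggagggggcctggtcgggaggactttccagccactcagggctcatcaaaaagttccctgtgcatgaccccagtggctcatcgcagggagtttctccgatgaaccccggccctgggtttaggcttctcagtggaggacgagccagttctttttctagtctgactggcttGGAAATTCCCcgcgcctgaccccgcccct
Cxcl10: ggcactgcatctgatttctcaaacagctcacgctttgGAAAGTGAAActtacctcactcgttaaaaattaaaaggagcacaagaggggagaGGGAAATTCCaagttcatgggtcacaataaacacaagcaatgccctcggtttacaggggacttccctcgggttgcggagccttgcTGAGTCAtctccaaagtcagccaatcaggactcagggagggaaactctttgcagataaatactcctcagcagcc
Gbp2: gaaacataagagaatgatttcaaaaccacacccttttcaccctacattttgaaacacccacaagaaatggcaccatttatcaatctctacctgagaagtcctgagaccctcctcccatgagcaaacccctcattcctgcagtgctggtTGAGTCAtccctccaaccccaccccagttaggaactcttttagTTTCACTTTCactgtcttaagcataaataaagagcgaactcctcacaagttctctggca
Gbp3: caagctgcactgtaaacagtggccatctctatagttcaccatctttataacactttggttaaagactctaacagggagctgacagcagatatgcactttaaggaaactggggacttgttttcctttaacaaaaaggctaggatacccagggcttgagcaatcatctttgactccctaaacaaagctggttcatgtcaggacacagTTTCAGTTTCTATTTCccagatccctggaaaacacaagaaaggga
Mmp3: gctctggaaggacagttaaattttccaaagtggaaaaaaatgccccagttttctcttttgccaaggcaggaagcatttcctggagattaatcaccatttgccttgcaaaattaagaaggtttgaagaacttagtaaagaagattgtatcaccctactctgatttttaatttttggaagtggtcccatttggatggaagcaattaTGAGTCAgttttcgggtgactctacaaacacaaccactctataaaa
Nfkbie: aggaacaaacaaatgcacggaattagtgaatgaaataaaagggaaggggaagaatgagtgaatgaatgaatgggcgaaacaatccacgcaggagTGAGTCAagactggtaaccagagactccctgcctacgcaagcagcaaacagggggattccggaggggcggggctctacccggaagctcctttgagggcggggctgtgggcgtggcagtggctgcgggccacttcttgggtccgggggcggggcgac
Irf1: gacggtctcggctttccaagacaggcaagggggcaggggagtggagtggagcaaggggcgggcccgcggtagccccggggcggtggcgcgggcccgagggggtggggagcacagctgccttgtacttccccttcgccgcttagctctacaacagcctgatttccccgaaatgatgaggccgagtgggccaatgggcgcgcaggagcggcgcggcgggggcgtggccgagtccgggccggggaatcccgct

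These lie at chr5:90890995-90891244 (+ strand) for Cxcl1, chr12:55492648-55492897 (- strand) for Nfkbia, chr5:92348890-92349139 (- strand) for Cxcl10, chr3:142620413-142620662 (+ strand) for Gbp2, chr3:142559794-142560043 (+ strand) for the first of 2 annotated starts of Gbp3, chr9:7445572-7445821 (+ strand) for Mmp3, chr17:45555450-45555699 (+ strand) for Nfkbie, and chr11:53769764-53770013 (+ strand) for the first of 2 annotated starts of Irf1. The capitals of Cxcl1 are overlapping κB matches on the 2 strands, from 71 to 61 bases before the start, and those of Nfkbia are 1 κB match from 29 to 20 bases before it. Cxcl10 holds 1 match to each motif, the interferon-response letters farthest from the start (213 to 204 bases), the κB letters at 159 to 150 and the AP-1 letters at 74 to 68. Gbp2 and Gbp3 hold interferon-response letters within 59 bases of the start, and Gbp2 also AP-1 letters. Mmp3 had the largest fold difference by 24 h among genes above the floor before TNF-α. It holds AP-1 letters at 46 to 40 bases and no κB match of these letters. Nfkbie and Irf1 were both highest at 1.5 h, and Nfkbie holds 1 match to the AP-1 letters and Irf1 a match to none of the 3. Other forms of the κB motif were not searched in either promoter.

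Adhesion genes of the leukocyte-binding kind moved with the chemokines. Icam1, a ligand of leukocyte integrins, read 69.7 at 0 h, 399 at 1.5 h, 459 at 6 h and 294 at 24 h, which is 6.58-fold at 6 h. Vcam1, which binds the integrin of monocytes and lymphocytes, read 477 at 0 h, 1485 at 1.5 h, 1516 at 6 h and 1435 at 24 h and was level from 1.5 h on. Selp, the gene of P-selectin, was highest at 1.5 h and within 2-fold at 24 h (57.8 at 0 h, 138 at 1.5 h, 119 at 6 h and 75.8 at 24 h). The other 4 measured adhesion genes, Alcam, Cd44, Mcam and Ncam1, stayed within 2-fold, Cd44 being highest at 6 h (0.85).

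Of 9 measured cytokine and receptor genes, Csf1, Lif and Cd40 passed 2-fold. Csf1, the growth factor of macrophages, read 483 at 0 h, 1759 at 1.5 h, 1271 at 6 h and 1108 at 24 h. Lif, a cytokine of the interleukin-6 family, was high at 1.5 and 6 h and back near its start at 24 h (41.5 at 0 h, 131 at 1.5 h, 129.7 at 6 h and 47.4 at 24 h). Cd40, a receptor of the TNF family, read 219.9 at 0 h, 343 at 1.5 h, 583 at 6 h and 529 at 24 h. Il6 itself stayed under 100 (highest 90.0), as did Csf2, Csf3, Il1a and Il1b. The pentraxin Ptx3, an acute-phase protein made outside the liver, read 210.5 at 0 h, 700.2 at 1.5 h, 583 at 6 h and 478 at 24 h, while the acute-phase genes Lcn2 and Saa3 did not reach 100. Growth factor genes among the 83 included Pdgfb, with 166 at 0 h, 773 at 1.5 h, 681 at 6 h and 358 at 24 h, and the slower Vegfc, with 284 at 0 h, 359 at 1.5 h, 829.9 at 6 h and 1204 at 24 h, and Fgf7, with 524 at 0 h, 899 at 1.5 h, 1165 at 6 h and 1339 at 24 h.

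Of 52 interferon response genes on the array, 11 were measured in these cells and 4 of them passed 2-fold, all upward, with list medians of 0.28, 0.38 and 0.83. Of the genes that passed, Gbp2, Gbp3 and Ifi47 were under 100 at 0 h and are measured only through the treated arrays. Irf1, a transcription factor that NF-κB and interferon both induce, was an early peak: 355 at 0 h, 2443 at 1.5 h, 804 at 6 h and 947 at 24 h. Its value at 1.5 h was 6.89-fold that at 0 h. The guanylate-binding proteins, GTPases of cell-autonomous defence, were highest at 6 h. Gbp2 read 78.1 at 0 h, 208 at 1.5 h, 403 at 6 h and 204 at 24 h, Gbp3 read 24.4 at 0 h, 80.3 at 1.5 h, 155 at 6 h and 57.2 at 24 h and Gbp2b, which was not on the list, read 89.4 at 0 h, 204 at 1.5 h, 368 at 6 h and 147 at 24 h. Their sequences are close, so a probe may read more than 1 of them. Ifi47, an interferon-inducible GTPase, passed 2-fold at 6 h only (1.11). The RNA sensor gene Ddx58 (64.5 at 0 h, 94.0 at 1.5 h, 121 at 6 h and 122 at 24 h) and Ifit2 (82.8 at 0 h, 63.3 at 1.5 h, 89.7 at 6 h and 147 at 24 h), both also induced by type I interferon, stayed within 2-fold, with changes of 0.92 and 0.83 at 24 h. Ifit1, Isg15, Mx1, Irf7, Usp18 and Rsad2, other genes of that kind, were all under 62 on every Sirt6-/- array, and Ifnb1 was at 9.84 at most. Among 6 measured genes of MHC class I presentation, the immunoproteasome subunit Psmb10 was past 2-fold at 6 h (299 at 0 h, 429 at 1.5 h, 617 at 6 h and 472 at 24 h) and H2-D1, a class I heavy chain with near-identical relatives, at 24 h (53.2 at 0 h, 65.4 at 1.5 h, 68.7 at 6 h and 118 at 24 h).

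A set of 8 genes was past 2-fold at 1.5 h alone. It held the transcription factor genes Junb, Fosl1, Egr2, Cebpb and Gata6, the cytokine-signalling inhibitor Cish, the circadian gene Noct and the DNA exonuclease gene Trex1. Junb read 457 at 0 h, 1012 at 1.5 h, 751 at 6 h and 461 at 24 h, and Egr2 read 257 at 0 h, 523 at 1.5 h, 506 at 6 h and 233 at 24 h, so both were back at their start by 24 h. Fosl1 ended below its start (80.1 at 0 h, 174 at 1.5 h, 60.0 at 24 h). Cebpb, Gata6, Noct and Trex1 were within 2-fold at 24 h but still above 0 h, with changes of 0.53, 0.58, 0.62 and 0.70. Of 16 measured immediate early genes, 3 passed 2-fold at 1.5 h and 0 later. Fos (-0.21), Dusp1 (-0.11) and Egr1 (0.26) were among the 13 that did not.

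Secreted matrix metalloproteinases, the zinc enzymes that cut collagens and other matrix proteins, were late and large. Mmp3, stromelysin-1, had the largest change at any time among genes above the floor at 0 h. Ccl5, Cxcl5 and Cxcl10 were under the floor at 0 h, so their changes are lower bounds and cannot be ranked against it. Mmp3 read 38.9 at 0 h, 84.9 at 1.5 h, 730.3 at 6 h and 2372 at 24 h. Its 24 h value was 61.0-fold that at 0 h, and of that rise little was present at 1.5 h (2.19-fold). Mmp13, the interstitial collagenase of rodents, read 107 at 0 h, 201 at 1.5 h, 553 at 6 h and 1814 at 24 h, and was 16.9-fold higher at 24 h. Mmp10, stromelysin-2, read 17.9 at 0 h, 64.5 at 1.5 h, 296 at 6 h and 489 at 24 h. Mmp9, a gelatinase, read 110.2 at 0 h, 199.6 at 1.5 h, 529 at 6 h and 862 at 24 h. In all 4 genes the intensities ran in the order of the times.

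The change was uneven over the protease list. Of 16 measured members, these 4 were past 2-fold upward at 24 h and Adamts1 downward, and the list's median change was 0.16, 0.19 and 0.03. The gelatinase Mmp2 (-0.21 at 24 h), the membrane-bound Mmp14 (-0.08) and the inhibitors Timp1 (0.38) and Timp2 (0.15) stayed within 2-fold. Timp3, whose product stays bound to the matrix, went from 2363 to 1528. Adamts1, an aggrecan-cutting protease, read 105 at 0 h, 54.2 at 1.5 h, 64.4 at 6 h and 52.5 at 24 h, and its value at 1.5 h was the lowest change of any gene at that time (-0.96).

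Prnd, a relative of the prion protein gene, was past 2-fold at all 3 times and highest at 24 h (51.1 at 0 h, 119.9 at 1.5 h, 309.9 at 6 h and 436 at 24 h). Other genes were past 2-fold at 6 and 24 h or at 24 h alone. Slc2a6, a hexose transporter gene, read 151 at 0 h, 294 at 1.5 h, 485 at 6 h and 555 at 24 h. The pro-apoptotic gene Bid read 165 at 0 h, 318 at 1.5 h, 367 at 6 h and 408 at 24 h, and Gsdmd, the pore-forming protein of pyroptosis, 49.5 at 0 h, 64.2 at 1.5 h, 127 at 6 h and 115 at 24 h. Ch25h, the enzyme of 25-hydroxycholesterol, was past 2-fold from 1.5 h (337 at 0 h, 935 at 1.5 h, 944 at 6 h and 1043 at 24 h), whereas the 13 measured genes of cholesterol synthesis and uptake all stayed within 2-fold. The lysozyme genes Lyz2 (134 at 0 h, 166 at 1.5 h, 186 at 6 h and 373 at 24 h) and Lyz1 (307 at 0 h and 773 at 24 h), which are close copies, were past 2-fold at 24 h only. Lyz2 is also a macrophage marker. Of 13 macrophage markers on the array, 2 reached 100, Lyz2 and Laptm5, and their summed intensity was 253, 333, 332 and 511 at the 4 times. Ptprc and Itgam, which define leukocytes and myeloid cells, were at 4.79 and 3.14 at most, near 0 on an array whose detection value is 100, and Adgre1 was at 45.2 at most.

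The genes that were lower came late: 25 of the 30 passed 2-fold at 24 h only, 4 at 6 h only and 1, Palmd, at both. Palmd, the palmdelphin gene, read 185 at 0 h, 124 at 1.5 h, 59.2 at 6 h and 53.8 at 24 h. Matrix genes were among them. Eln, the elastin gene, read 1087 at 0 h, 1219 at 1.5 h, 877 at 6 h and 329 at 24 h, so that 0.303 of its 0 h intensity was left at 24 h. Mgp, matrix Gla protein, an inhibitor of calcification, read 1725 at 0 h, 1821 at 1.5 h, 1705 at 6 h and 536 at 24 h. For both genes the 24 h array was the lowest and lay apart from the other 3. Of 31 measured collagen and matrix genes, Eln and Col6a2 (-1.20) were past 2-fold and the list's median at 24 h was -0.09. Col1a1, the main fibrillar collagen gene, went from 4817 to 2510.1 (-0.94), and Mfap4, an elastic fibre protein, by -0.97, both just within 2-fold. Lamb1 (0.70) and Dcn (0.74) went the other way.

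Also lower were 2 of 14 measured contractile genes. Myh11, the smooth muscle myosin heavy chain, read 391 at 0 h, 339.7 at 1.5 h, 373 at 6 h and 164 at 24 h, and Mylk, the kinase of its light chain, 408 at 0 h, 382 at 1.5 h, 313 at 6 h and 197 at 24 h. The actin and actin-binding genes of that list, Acta2 (-0.08 at 24 h), Tpm1 (-0.01) and Tagln (-0.26), stayed within 2-fold, and its median at 24 h was -0.30. Scx, a transcription factor gene of tendon cells, read 184 at 0 h, 182 at 1.5 h, 102 at 6 h and 73.6 at 24 h, and the homeobox gene Msx1 read 153 at 0 h, 195 at 1.5 h, 97.1 at 6 h and 62.7 at 24 h. Signalling genes included Bmp4 (1772 at 0 h, 1611 at 1.5 h, 1163 at 6 h and 864 at 24 h), the heparin-binding growth factor gene Ptn (4810.3 at 0 h, 4269.6 at 1.5 h, 4066 at 6 h and 2351 at 24 h), the natriuretic peptide gene Nppb (138 at 0 h, 211 at 1.5 h, 242 at 6 h and 44.5 at 24 h) and the retinoic acid carrier gene Crabp2 (355 at 0 h, 279 at 1.5 h, 202 at 6 h and 138 at 24 h). Of 9 measured genes of the IGF axis, Igfbp3 passed 2-fold (288 at 0 h, 382 at 1.5 h, 242 at 6 h and 127 at 24 h), Igfbp2 lay just within it (-0.98), and the list's median at 24 h was -0.43. The 5 genes that were lower at 6 h were Palmd, Lmcd1, Fat4, Id4 and Hoxa11, of which Hoxa11 was back above its start at 24 h (88.9 at 0 h, 90.1 at 1.5 h, 42.6 at 6 h and 102 at 24 h). At 24 h, 16 of the 30 genes were under 100.

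Several lists had no member past 2-fold at any time. These were the cell cycle (23 measured genes), p53 targets and CDK inhibitors (20), the unfolded protein and integrated stress response (15), cholesterol genes (13), antioxidant genes and metallothioneins (12), fibroblast markers (10), glycolysis (10), skeletal muscle (9), housekeeping genes (7), epithelial markers (2) and endothelial markers (1). The cell cycle list had a median of -0.01 at 1.5 h and 0.20 at 24 h, with Cdk1 at 0.54 and Pcna at 0.51 at the last time. Of 19 measured genes that the study names, Ccl2, Nfkbia, Relb and Nfkb2 were past 2-fold upward and Tinagl1 downward. The study chose these 19 by promoter binding and then by expression on these arrays, so their values here are no independent evidence. Gadd45b was at 358 at 0 h, 568 at 1.5 h, 385 at 6 h and 407 at 24 h, Cdkn2a at 214 at 0 h, 309.8 at 1.5 h, 261 at 6 h and 193 at 24 h and Lmna at 4871 at 0 h, 6071 at 1.5 h, 4819.7 at 6 h and 4049 at 24 h, all within 2-fold.

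For 16 of the genes past 2-fold another probe also reached 100. All 20 such probes changed in the same direction as the probe used, and 16 of them were past 2-fold too.

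The same genes were then read in the other 2 genotypes, whose 0 h arrays are separate. They were chosen by their values in Sirt6-/- cells, so a larger change there than elsewhere is in part fixed by the choice. Of the 49 genes past 2-fold upward at 1.5 h, 38 were also past 2-fold in wild-type cells (77.6% of the 49, and 25.0% of the 152 wild-type genes). At 6 h it was 43 of 60 (71.7%, and 39.8% of 108) and at 24 h 37 of 63 (58.7%, and 32.7% of 113). The wild-type counts are 2.64%, 1.88% and 1.97% of the 5748 genes, beside 19 (0.331%), 30 (0.522%) and 49 (0.852%) wild-type genes at least 2-fold lower. All 49 genes at 1.5 h, 58 of 60 at 6 h and 58 of 63 at 24 h had the same direction in wild-type cells. The median change of these genes was 1.53, 1.56 and 1.39 in Sirt6-/- cells and 1.32, 1.31 and 1.11 in wild-type cells. Over all 5748 genes the wild-type median was itself above 0, at 0.14, 0.04 and 0.05. At 0 h the intensity of the higher genes in Sirt6-/- cells differed from that in wild-type cells by a median of -0.20, -0.24 and -0.46 on the log2 scale. Over all 5748 genes it was 0.11. A lower 0 h level in Sirt6-/- cells is likewise in part fixed by the choice. At the treated times the median difference was 0.16, 0.10 and 0.10, against 0.02, 0.10 and 0.11 over all genes.

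Cxcl1 read 108 at 0 h, 1054 at 1.5 h, 796 at 6 h and 719 at 24 h in wild-type cells, above the Sirt6-/- arrays at every time, with a change of 3.29 at 1.5 h against 4.74. Irf1 read 440.4 at 0 h, 1457 at 1.5 h, 929 at 6 h and 964 at 24 h, and its change at 1.5 h was 1.73 against 2.78. Mmp3 started at 145 and reached 2184 in wild-type cells, near the Sirt6-/- level at 24 h. Eln was lower in wild-type cells at every time (158 at 0 h, 231 at 1.5 h, 155 at 6 h and 82.6 at 24 h), with a change of -0.93 at 24 h. With 1 array per condition none of these differences between genotypes was tested.

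**Figure D3:**
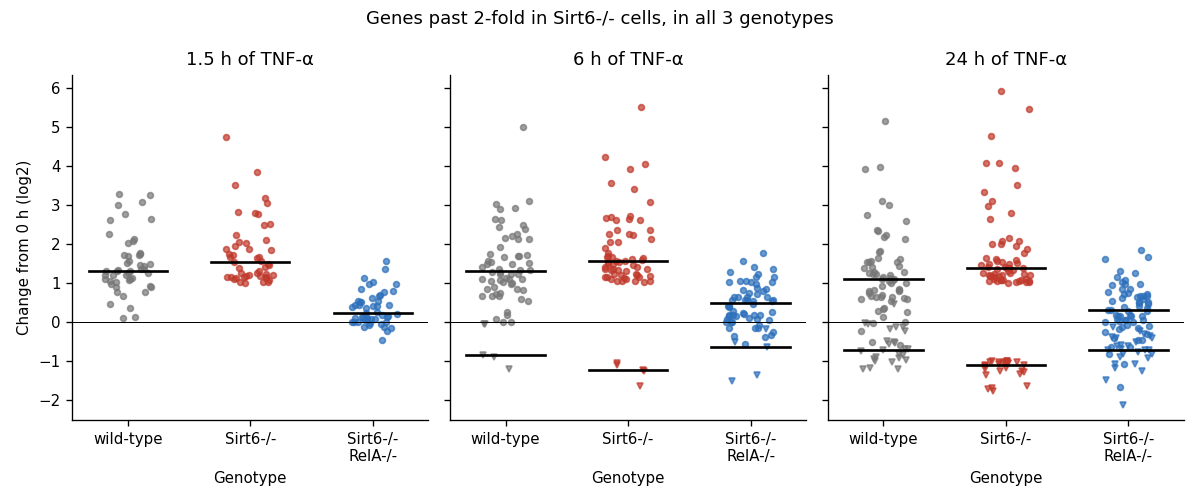
Change from 0 h on the log2 scale (vertical) of the genes past 2-fold in Sirt6-/- cells at 1.5, 6 and 24 h of TNF-α, in each of the 3 genotypes (horizontal). Circles are genes higher and triangles genes lower in Sirt6-/- cells, and black lines are medians, which for the higher genes are 1.53, 1.56 and 1.39 in Sirt6-/- and 0.24, 0.49 and 0.31 in Sirt6-/-RelA-/- cells.

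In Sirt6-/-RelA-/- cells, which lack both genes, 4 of the 49 genes were past 2-fold at 1.5 h (8.16% of them), 13 of 60 at 6 h (21.7%) and 8 of 63 at 24 h (12.7%). These are 4 of 4, 13 of 16 and 8 of 12 genes past 2-fold upward in those cells, which is 0.0696%, 0.278% and 0.209% of all. The 4 at 1.5 h were Relb, Cxcl5, Nfkbia and Tnfaip3. The median change of the Sirt6-/- genes there was 0.24, 0.49 and 0.31, and 37 of 49, 49 of 60 and 47 of 63 had the same direction. Over all 5748 genes the median in those cells was -0.01, -0.02 and -0.05. Ccl2 read 164 at 0 h, 324 at 1.5 h, 487 at 6 h and 391 at 24 h and Nfkbia 199 at 0 h, 438 at 1.5 h, 407 at 6 h and 317 at 24 h, both higher than at 0 h on all 3 treated arrays. Gbp2 read 27.1 at 0 h, 25.5 at 1.5 h, 20.8 at 6 h and 23.8 at 24 h, and Mmp3 27.2 at 0 h, 27.1 at 1.5 h, 42.4 at 6 h and 52.9 at 24 h. The 26 genes that were lower at 24 h kept more of their change in Sirt6-/-RelA-/- cells, with a median of -0.72 against -1.10. All 26 were lower there, where the median of all genes was -0.05. In wild-type cells 25 of 26 were lower, with a median of -0.71, where that of all genes was 0.05. Of the 26 genes, 6 were past 2-fold in Sirt6-/-RelA-/- and 4 in wild-type cells, where 31 and 49 of all genes were (0.539% and 0.852%). Eln read 484 at 0 h, 436 at 1.5 h, 355 at 6 h and 112 at 24 h without RelA. The Sirt6-/-RelA-/- cultures differ from the other 8 in sex-linked transcripts, with Eif2s3y, a Y-linked gene, at 768 to 910 there and under 3 in Sirt6-/- cells, and the part of this in the differences was not tested.

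**Figure D4:**
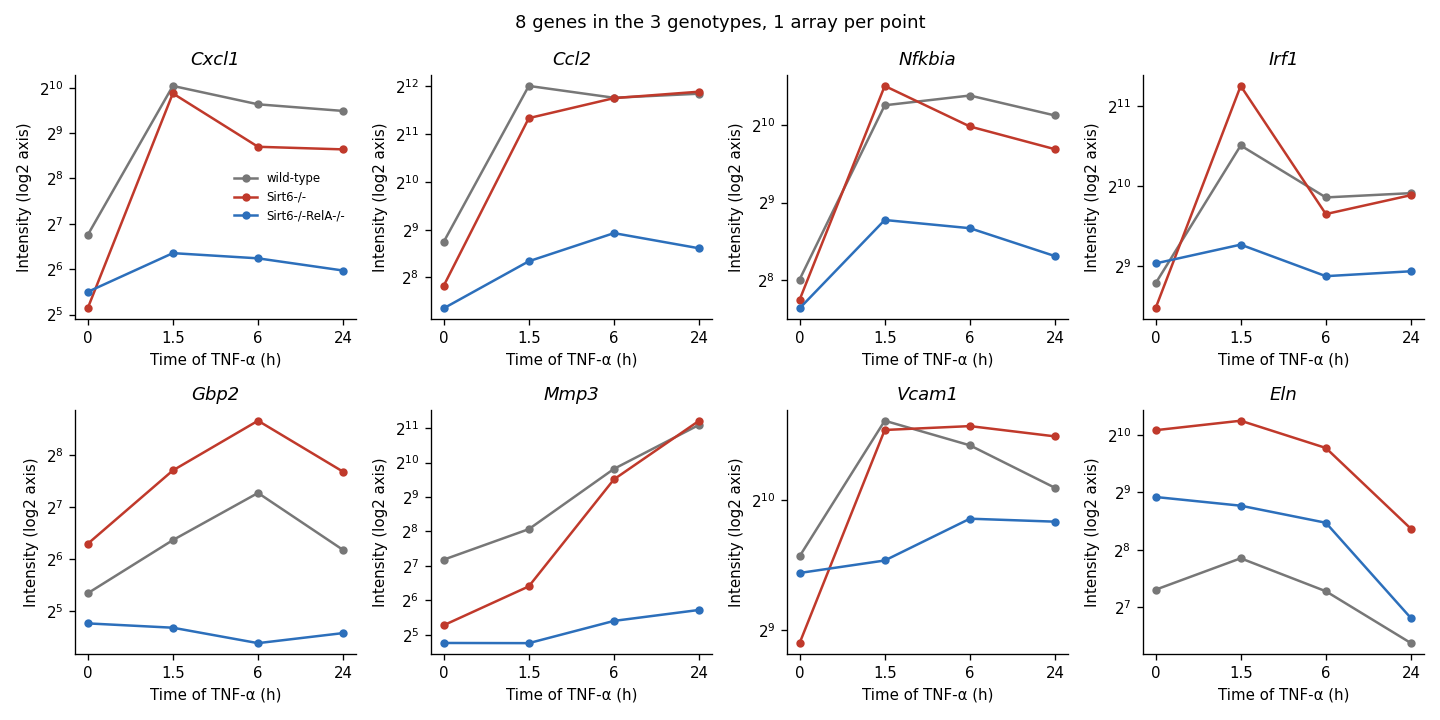
Intensity (vertical, log2 axis) of 8 genes at 0, 1.5, 6 and 24 h of TNF-α in wild-type, Sirt6-/- and Sirt6-/-RelA-/- cells, 1 array per point. Sirt6-/- and wild-type lines climb for Cxcl1, Ccl2, Nfkbia, Irf1 and Mmp3, by more than the Sirt6-/-RelA-/- line does (Ccl2 and Nfkbia also pass 2-fold there), and all 3 lines fall for Eln at 24 h.

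To give the time course a test, limma was fitted to the 8 wild-type and Sirt6-/- arrays with genotype as a block and time as a factor. It asks for the effect of time that the 2 genotypes share and is no test of Sirt6-/- cells alone. Its error joins the departure of the 2 courses from parallel, taken over all times, with a prior spread drawn from all 6096 genes. The prior carries 8.175 degrees of freedom and the gene's own values 3, so an adjusted p rests in large part on other genes. A gene whose courses differ between the genotypes at any time still has a larger error at every time. Of 6096 genes, 51 were higher (0.837%) and 1 lower (0.0164%) at 1.5 h at a Benjamini-Hochberg adjusted p under 0.05, 68 higher (1.12%) and 7 lower (0.115%) at 6 h, and 74 higher (1.21%) and 37 lower (0.607%) at 24 h. The lower gene at 1.5 h was Adamts1, with -0.93 (SE 0.18, adjusted p = 0.0342). Of the genes past 2-fold in Sirt6-/- cells, 41 of 49, 53 of 60 and 51 of 63 higher ones passed this test in the same direction, and 3 of 5 and 12 of 26 lower ones at 6 and 24 h, though the same Sirt6-/- arrays enter both counts. Without the wild-type 0 h array the counts were 48 higher and 0 lower at 1.5 h, 55 and 2 at 6 h, and 53 and 15 at 24 h. With no filter on low values, over all genes with a named probe, they were 2 and 0, 1 and 0, and 0 and 0.

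The shared effect of Ccl2 at 1.5 h was 3.39 (SE 0.23, adjusted p = 1.64e-05), that of Cxcl1 4.02 (SE 0.27, adjusted p = 1.55e-05) and that of Nfkbia 2.50 (SE 0.19, adjusted p = 4.34e-05). For Irf1 it was 2.25 (SE 0.23, adjusted p = 3.94e-04). Mmp3 and Mmp10 did not pass at 1.5 h (adjusted p = 0.392 and 0.309) and did at 24 h. Mmp3 had 4.92 at 24 h (SE 0.40, adjusted p = 4.61e-05) and Mmp13 4.02 (SE 0.21, adjusted p = 2.12e-06). In wild-type and Sirt6-/- cells Mmp3 changed by 0.89 and 1.13 at 1.5 h, and by 3.91 and 5.93 at 24 h, where the courses lay farther apart. Among the lower genes at 24 h, Eln had a shared effect of -1.33 (SE 0.19, adjusted p = 0.00475), Myh11 of -1.23 (SE 0.16, adjusted p = 0.00195) and Palmd of -1.49 (SE 0.22, adjusted p = 0.00524). Igfbp3 (0.723), Cavin1 (0.483), Scx (0.321) and Bmp4 (0.0644) did not pass by their adjusted p. Of the genes past 2-fold at 1.5 h alone, Junb (0.292), Fosl1 (0.193), Egr2 (0.217) and Cebpb (0.392) did not pass at 1.5 h either. Gata6 (0.0025) and Trex1 (0.00217) did. In wild-type cells Junb, Fosl1, Egr2 and Cebpb changed by 0.35, 0.66, 0.45 and 0.11 at 1.5 h, against 1.15, 1.12, 1.02 and 1.01 in Sirt6-/- cells.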

How the data were processed

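RNA of 12 MEF cultures, 1 per genotype and time, was labelled with Cy5 and read on Illumina mouse bead arrays. The deposited values are linear intensities, from which the authors had removed background and which they had brought to a common scale, and the labels name GenomeStudio without a version. The method of scaling is not given in the sources used here. A table of non-normalized signals (24 columns, 12 of them signals) was not used, since its column names could not be assigned to samples. The study's list of experiments gives a second biological replicate for these cells, which is not analysed here. Of 25697 probes, 23978 had 1 gene symbol and 1719 none. For each of 16593 genes the probe with the highest mean among those at 100 or more on any array was used. Values under 16 were set to 16 before log2. No depth exists for arrays, and 1 array per condition limits the precision. Where the authors' values give no replicate, counts past 2-fold are descriptions. limma 3.58.1 in R 4.3.3 was fitted to the 8 wild-type and Sirt6-/- arrays (3 residual degrees of freedom), where arrays are replicates across genotypes only. The fit was run on simulated data: of genes changed by 1 and 2 on the log2 scale at 1.5 h, 97% and 100% were recovered among 6096 genes. The simulated noise was independent and the change was the same in both genotypes. These shares check the procedure and do not carry over to genes whose courses differ between the genotypes. Named genes are the 12 largest rises and falls at each time, up to 5 members past 2-fold of each list (or its largest), Sirt6, Rela and the genes the study names. Other named genes were chosen after their values were seen. Members and lists were chosen with earlier results of these data known. The alternatives were another floor, an offset, quantile normalization, median centring, other filters, all probes, other folds, another variance prior and other arrays. A count without genes under 100 at 0 h, and a fit that drops the wild-type 0 h array, were chosen after seeing the data. The plots used matplotlib 3.10.9 under Python 3.11.15.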

Additional observations from a re-analysis of the deposited data

Results flagged for a closer look

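For 10 pairs of gene and genotype, a gene past 2-fold in Sirt6-/- cells changed in one direction on all 3 treated Sirt6-/- arrays and in the other on all 3 arrays of another genotype. With 1 array per condition these differences were not tested, and the 3 arrays of a genotype share their 0 h array. Values are changes from 0 h on the log2 scale at the time of the largest change in Sirt6-/- cells, followed by the difference. Against wild-type cells there was 1 such gene, Nfib, a transcription factor, at 1.26 against -0.60 at 24 h (1.86). That value rests on the wild-type 0 h array, which stands apart. Against Sirt6-/-RelA-/- cells there were 9. At 6 h Gbp2 was at 2.37 against -0.38 (2.75), Gbp2b at 2.04 against -0.34 (2.38), Gsdmd at 1.36 against -0.36 (1.72) and Psmb10 at 1.05 against -0.15 (1.20). At 1.5 h Ptx3 was at 1.73 against -0.24 (1.97). At 24 h Slc2a6 was at 1.88 against -0.07 (1.95), Sash1 at 1.19 against -1.08 (2.27), Elavl2 at 1.19 against -0.45 (1.65) and Rbfox1 at 1.03 against -0.47 (1.49). For Slc2a6, Psmb10, Gbp2, Gbp2b and Rbfox1 the change in Sirt6-/-RelA-/- cells came as close to 0 as -0.07, -0.03, -0.08, -0.06 and -0.05. Groups of 1 array allow no test for an array far from the others.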

How the results depend on the processing

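No paired analysis was possible because each condition has 1 array and so no replicate numbers. The block of the limma fit is the genotype, not a replicate. Counts within Sirt6-/- cells are given as higher and lower at 1.5, 6 and 24 h, against 49 and 0, 60 and 5, and 63 and 26. A minimum of 1.5-fold gave 110 and 22, 143 and 58, and 197 and 161, and a minimum of 3-fold 23 higher at 1.5 h, 28 and 1, and 23 and 4. An offset of 50, which compresses low values, gave 28 higher at 1.5 h, 1 lower at 6 h, and 40 and 6 at 24 h. Without a filter the counts were 121 and 24, 137 and 26, and 140 and 62. A filter at 50 gave 8, 14 and 47 lower genes, and one at 200 gave 0 lower at 6 h and 15 at 24 h. Without genes under 100 at 0 h, chosen after seeing the data, 24, 29 and 30 genes were higher. Centring on the median moved the 24 h split to 57 higher and 37 lower. A floor of 32, quantile normalization and the mean of all probes left every count within 1.5 times.

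For the limma counts (51 and 1, 68 and 7, 74 and 37), no filter gave 2 and 0, 1 and 0, and 0 and 0, with 491 higher and 357 lower at an unadjusted p under 0.05 at 24 h. All 12 arrays gave 16 and 0, 40 and 14, and 78 lower at 24 h. Centring gave 3 lower at 1.5 h, 69 and 16 at 6 h, and 72 and 62 at 24 h. A floor of 32 gave 4 lower at 6 h, a filter at 200 gave 1 lower at 6 h, and one at 50 gave 49 and 22 at 24 h. The lower gene at 1.5 h was lost (0) with the offset, quantile normalization, either other filter, the mean of all probes, the other prior, and without the 6 h or the wild-type 0 h arrays. Leaving out the wild-type 0 h array, also chosen after seeing the data, gave 2 lower at 6 h and 15 at 24 h. The cause was not tested in any of these. Of 853 values of 101 named genes under these settings, 0 changed direction where called, and 65 moved by more than the spread of all genes, 40 of them with the offset. The 0 is in large part fixed by the settings. The filters choose which genes are kept and hardly touch a gene's own value, and a floor or an offset cannot reverse the order of 2 values. Values near 0 intensity limit every fold of a gene under 100 at 0 h.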
